A study of Oreochromis niloticus with 6 samples.

Results

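The enzymes that break down phenylalanine and tyrosine were followed in the liver of Nile tilapia, Oreochromis niloticus. The 5 symbols tat, hpd, hgd, gstz1 and fah were looked up in the gene names of the mRNA table, each also with the letter that marks a duplicated fish gene. They matched 5 of 26490 gene IDs, which were tat, hpda, hpdb, hgd and gstz1. The symbol fah was not among those names, and this last enzyme was not analysed here. The fish were male juveniles of the GIFT strain, labelled wild type, and were fed to satiation in circulating-water tanks for 56 days. Their feed held 18.5% lipid in the high-fat group (HFD) and 8% in the group on normal fat (NFD). Each diet has 3 libraries, made from total liver RNA after removal of ribosomal RNA. The labels call the libraries biological replicates but also say that the RNA of 3 samples per group was mixed, so p-values reflect only how much these libraries varied, and that variation may be technical.

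Phenylalanine is cleared mainly in the liver, by way of tyrosine. An aminotransferase and a dioxygenase carry tyrosine to homogentisate, a second dioxygenase opens its ring, and an isomerase and a hydrolase finish the route with fumarate, which enters the citric acid cycle, and acetoacetate, a ketone body. In humans, loss of single enzymes causes alkaptonuria (HGD) and forms of tyrosinaemia (TAT, HPD and FAH).

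Values are FPKM, fragments scaled to the length of the transcript and to the library's sequenced fragments, so levels can be set beside each other between genes. Library sums over all mRNA rows ran from 141024 to 170847 FPKM, and the number of reads behind a value is unknown. Hepatocyte markers were present at 2940 to 3977 summed FPKM in the HFD libraries and 4130 to 9778 in the NFD libraries, over 14 gene IDs of which 0 were at 0 in every library. The fibrinogen chain fgb ranged from 0.835 to 3857 FPKM, and without it the marker sums were 2939 to 3976 in HFD and 4129 to 5921 in NFD. Hepatocyte transcripts were thus present, and 10 of the 14 gene IDs had at least 0.5 FPKM in 3 or more libraries. The summed markers were lower in every HFD library than in every NFD library. That order was not general to the list. The gene ID shared by apoa2 and apoeb was at 1667 to 2137 FPKM in HFD and 2171 to 3622 in NFD. Besides it, only a fetub gene ID at 0.368 FPKM or less separated the diets, also lower in HFD. The other hepatocyte gene IDs overlapped. In bulk tissue, fewer cells of a type and less RNA per cell cannot be told apart. Exocrine pancreas transcripts were also abundant, at 4609 to 17786 summed FPKM in HFD and 3921 to 16539 in NFD over 10 gene IDs, highest in HFD replicate 3 and NFD replicate 1. This sum was above the hepatocyte sum in every library except NFD replicate 3. Kidney markers, of an organ that shares part of the route in mammals, reached 2.13 summed FPKM over 6 gene IDs, of which 1 was at 0 in every library. The adipocyte list, of 3 gene IDs with 0 at 0 in every library, summed to 11.2 to 19.6 FPKM in HFD and 3.26 to 7.49 in NFD. Nearly all of it was the lipase lpl, and the lipid droplet gene cidec reached 0.123 FPKM at most. Every HFD library was thus above every NFD library in that sum, as in hgd, pts, dnajc12 and acat1 below and in 5.48% of all tested genes. The reverse order, that of the hepatocyte sums, was also that of bdh2, FAHD2A and FH below. Intestine markers, over 3 gene IDs of which 1 was at 0 in every library, were at 1.76 to 1.84 FPKM in HFD and 1.91 to 2.73 in NFD. Kidney, erythrocyte, bile duct and phagocyte sums overlapped between diets. Within the kidney list, 2 genes separated the diets in opposite directions, where 11.6% of all tested genes did not overlap. The gene lrp2a was at 0.726 to 1.29 FPKM in HFD and 0.104 to 0.262 in NFD. For cubn the values were 0.494 to 1.08 FPKM in HFD and 1.20 to 1.55 in NFD. The part of these marker levels in the results below was not tested.

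The 4 tested members were unevenly expressed, with hgd far above the others. Each level is that of 1 listed transcript. Transcript numbers next to the listed one were missing from both the mRNA and lncRNA tables for tat (2), hpda (2) and gstz1 (1), against 0 for hgd. Whether unlisted transcripts of these genes exist is unknown. The median over the 6 libraries was 129.8 FPKM for hgd, 10.9 for tat, 7.16 for hpda and 1.47 for gstz1. The ring-opening dioxygenase hgd was above tat, the next in order, in 6 of 6 libraries with separate ranges. Tat was above hpda in 4 of 6 libraries, so these neighbours did not separate beyond their spread. Hpda was above gstz1 in 6 of 6 libraries with separate ranges. Among 9204 genes with at least 0.5 FPKM in 3 or more libraries, hgd had a higher mean than 98.3%. Tat and hpda were above 90.9% and 89.7% of these genes, and gstz1 above 48.0%, near the middle.

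**Figure D1:**
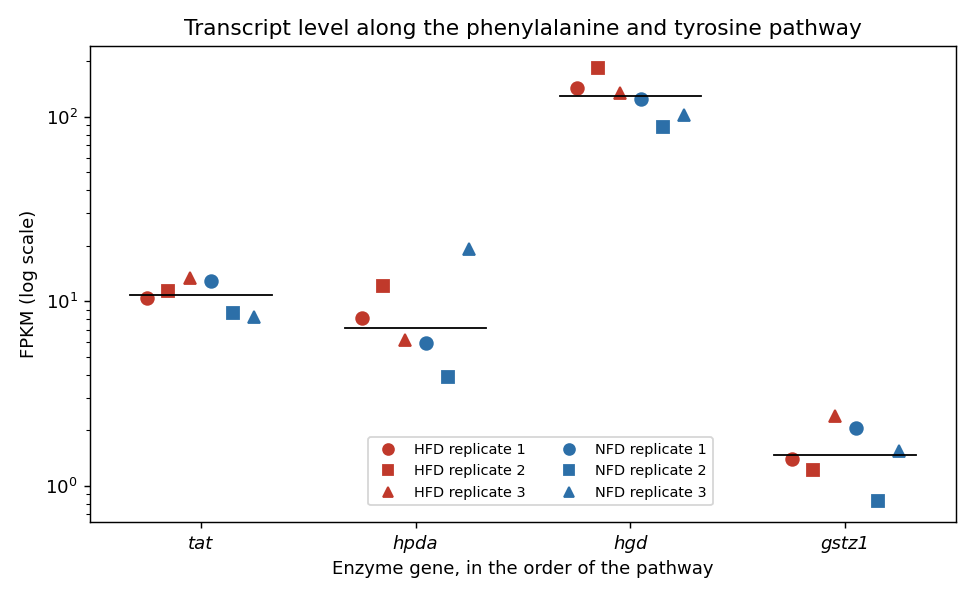
FPKM (log scale) of the 4 tested enzyme genes in pathway order, 1 point per library, with HFD in red and NFD in blue and the median of 6 libraries as a line. Hgd lies between 88.0 and 184.4 FPKM, above the other genes in every library, and gstz1 between 0.832 and 2.40 FPKM, below them in every library.

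Within each library, the level changed most between hpda and hgd and between hgd and gstz1. The ratio of hgd to hpda was between 5.31 and 22.6 over the 6 libraries (mean log2 ratio 3.97 ± 0.79 SD, n = 6), with NFD replicate 3 as the lowest. The ratio of gstz1 to hgd was between 0.00661 and 0.0178 (mean log2 ratio -6.40 ± 0.56 SD, n = 6). Both ratios kept their direction in all 6 libraries. The ratio of hpda to tat lay on both sides of 1, from 0.450 to 2.34, and hpda was the higher in 2 of 6 libraries.

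Tyrosine aminotransferase, tat (MSTRG.2782), removes the amino group of tyrosine and in mammals is a classic target of glucocorticoids. It was at 10.4, 11.3 and 13.4 FPKM in the HFD libraries and 12.9, 8.65 and 8.18 FPKM in the NFD libraries. It varied least of the tested members, with a highest value 1.64 times the lowest. Only NFD replicate 1 kept the diets from separating, since the other NFD libraries were below all HFD libraries.

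The next enzyme, 4-hydroxyphenylpyruvate dioxygenase, makes homogentisate, and tilapia carry it in duplicate. The copy hpda (MSTRG.28070) was at 8.14, 12.1 and 6.19 FPKM in HFD and 5.92, 3.89 and 19.1 FPKM in NFD. NFD replicates 2 and 3 were the lowest and the highest of all 6 libraries, so the whole range lay within one diet. The copy hpdb (ENSONIG00000010836) was listed at 0 in 4 libraries, at 0.0334 FPKM in HFD replicate 2 and at 0.0447 FPKM in NFD replicate 3. It was the member that did not reach the minimum for testing, and hpda carried nearly all of the dioxygenase transcript in every library.

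Homogentisate 1,2-dioxygenase, hgd (MSTRG.8110), opens the aromatic ring. It was at 143.4, 184.4 and 134.5 FPKM in HFD and 125.1, 88.0 and 101.6 FPKM in NFD. All 3 HFD libraries were above all 3 NFD libraries, with a gap from 125.1 to 134.5 FPKM. Its highest value was 2.09 times the lowest.

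Maleylacetoacetate isomerase, gstz1 (MSTRG.22233), is the glutathione transferase of the route. It was at 1.40, 1.22 and 2.40 FPKM in HFD and 2.05, 0.832 and 1.54 FPKM in NFD. The diets overlapped, with HFD replicate 3 and NFD replicate 1 as the 2 highest libraries.

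**Figure D2:**
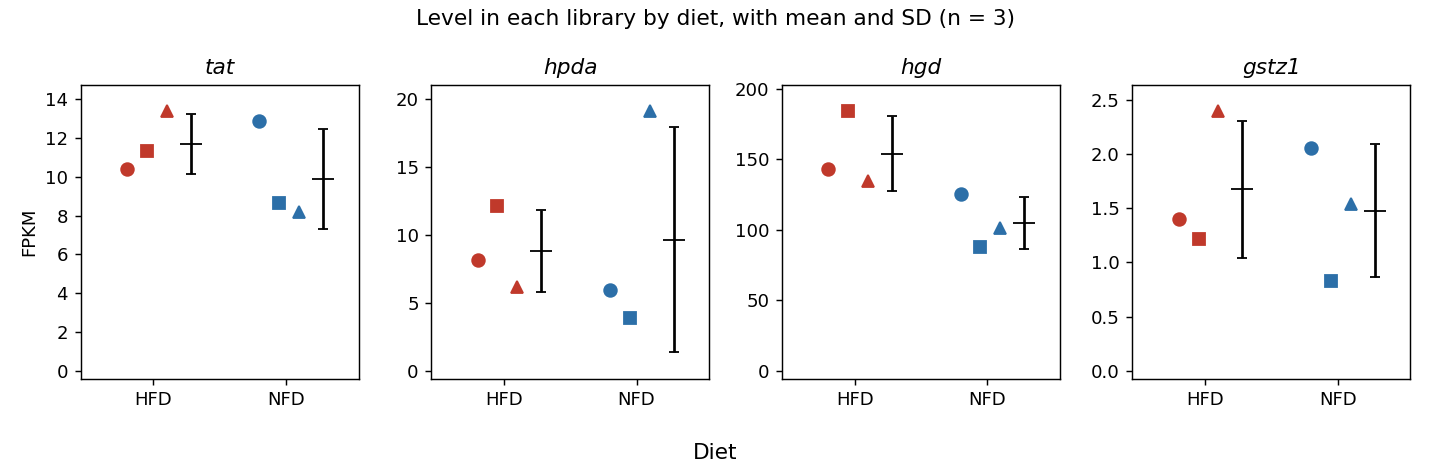
FPKM of each enzyme gene by diet, 1 point per library (circle, square and triangle for replicates 1, 2 and 3), with the mean and SD of 3 libraries in black. The diets are apart in hgd alone, where HFD lies between 134.5 and 184.4 FPKM and NFD between 88.0 and 125.1.

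The comparison of HFD with NFD asks whether dietary fat moved this route. No member passed. In limma, 0 of 4 tested members had an adjusted p under 0.05, against 0% of the 9204 genes tested, where the lowest was 0.235. Without adjustment, p was under 0.05 in 0 of 4 members against 6.02% of all tested genes. The diets did not overlap in 1 of 4 members, hgd, against 11.6% of all tested genes, or 5.48% for genes higher in HFD, and nothing is read from a count of 1.

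Hgd came nearest. Its mean was 154.1 ± 26.6 FPKM in HFD and 104.9 ± 18.8 FPKM in NFD (SD, n = 3 each). The log2 fold change was 0.55 ± 0.24 SE with a 95% interval from -0.03 to 1.14 (limma, unadjusted p = 0.0595, adjusted p = 0.834). That interval spans no change and a 2.20-fold higher level in HFD. Without NFD replicate 1 the log2 fold change was 0.69 (limma, unadjusted p = 0.0357, adjusted p = 0.730). That library had the highest hgd of the NFD libraries, so leaving it out was bound to widen the difference, and nothing is read from it. With all 6 libraries and no variance trend in limma, the unadjusted p was 0.0437 and the adjusted p 0.826. In every other alternative the unadjusted p of hgd was higher than these. The log2 fold change was 0.42 without HFD replicate 2 (limma, unadjusted p = 0.164) and 0.44 without NFD replicate 2 (limma, unadjusted p = 0.168). With a replicate block the unadjusted p of hgd was 0.140 in limma. Over all alternatives the adjusted p was between 0.730 and 1.000.

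Tat was at 11.7 ± 1.54 and 9.90 ± 2.58 FPKM, a log2 fold change of 0.25 with an interval from -0.32 to 0.83. Without NFD replicate 1, the library that overlapped, it was 0.45, at an adjusted p = 0.769 in limma. Leaving that library out was bound to widen the difference, so nothing is read from it. Without NFD replicate 3 the log2 fold change of tat was 0.14.

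Hpda averaged 8.81 ± 3.02 FPKM on the high-fat diet and 9.64 ± 8.27 on normal fat, with a log2 fold change of 0.13 and an interval from -1.27 to 1.54. The arithmetic means and the log scale differ in sign here, and the fold change was -0.32 without NFD replicate 2 and 0.76 without NFD replicate 3. Gstz1 was at 1.67 ± 0.634 and 1.48 ± 0.614 FPKM, with a log2 fold change of 0.15 and an interval from -0.63 to 0.93; it was -0.11 without NFD replicate 2 and -0.08 without HFD replicate 3. The 4 fitted changes all lay above 0, with a median of 0.20, where 50.4% of all tested genes lay above 0 with a median of 0.00. For hpda and gstz1 that sign turned when single libraries were left out.

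**Figure D3:**
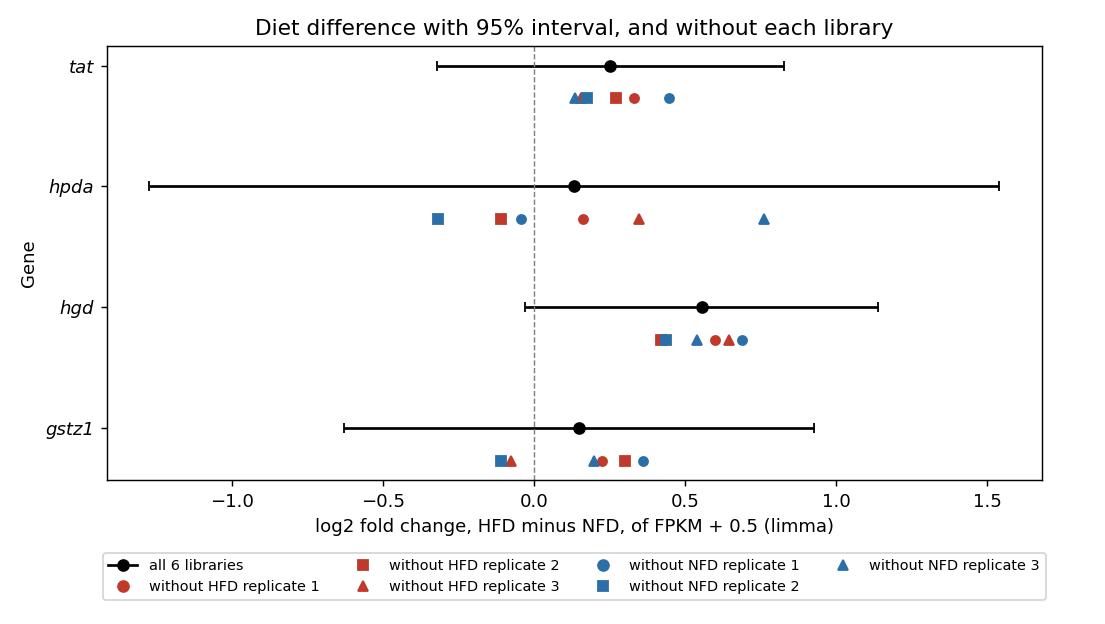
The log2 fold change of FPKM + 0.5, HFD minus NFD, for each enzyme gene with its 95% interval from limma in black, and the same value without each library as coloured points below it. Every interval includes 0, and the hpda value moves from 0.13 to 0.76 without NFD replicate 3.

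Summed over the 5 gene IDs, the route held 163.4, 209.1 and 156.5 FPKM in the HFD libraries and 145.9, 101.4 and 130.4 FPKM in the NFD libraries. These sums did not overlap, but hgd made up between 77.9% and 88.2% of them, so they mainly repeat its values.

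The members did not all go up and down together across libraries. HFD replicate 2 had the highest hgd but the second lowest gstz1. HFD replicate 3 had the highest tat and gstz1, and NFD replicate 1 the second highest of both. These 2 libraries also had the highest exocrine pancreas sums, and a link between them was not tested. NFD replicate 2 had the lowest hpda, hgd and gstz1 and the second lowest tat. In NFD replicate 3, hpda was the highest of 6, and tat and hgd were the lowest and second lowest.

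**Figure D4:**
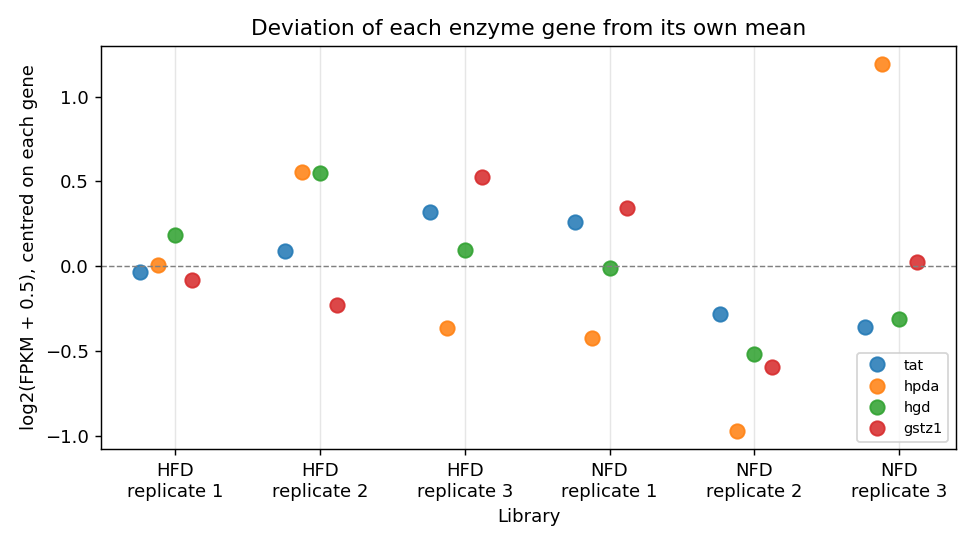
Log2(FPKM + 0.5) of each enzyme gene minus its mean over the 6 libraries, by library. The widest spread is that of hpda, from -0.97 in NFD replicate 2 to 1.19 in NFD replicate 3, and all 4 genes lie below their mean in NFD replicate 2.

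The genes nearest to the mean profile of the 4 tested members were sought by the root mean square difference of centred log2(FPKM + 0.5) values over the 6 libraries. That profile was lowest in NFD replicate 2, at -0.59, and between 0.02 and 0.24 in the other libraries. It averages members that differed, since in NFD replicate 3 hpda was at 1.19, gstz1 at 0.02, tat at -0.36 and hgd at -0.31. Of 5000 named genes with a mean of at least 1 FPKM, the nearest were zc3h14, a zinc finger protein that binds poly(A) (difference 0.062 on the log2 scale), and nit1, a nitrilase-family amidase (0.089). The RNA-binding protein rbm26 (0.093), the small GTPase rab5ab (0.11) and the potassium channel kcnk6 (0.11) followed. The likeness is a description of 6 libraries, in which NFD replicate 2 was the low point of all 5 genes.

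Genes that make or recycle tetrahydrobiopterin, a pterin cofactor, or regulate its synthesis were measured with the co-chaperone dnajc12. Of 8 tested, 0 passed in either direction over all genes (limma), 6 were higher and 2 lower in HFD, and the median log2 fold change was 0.31. The unadjusted p was under 0.05 in 2 of 8, against 6.02% of all tested genes, and in the same 2 the diets did not overlap, against 11.6% of all tested genes, or 5.48% for genes higher in HFD. They were pts and dnajc12. The synthase pts (MSTRG.1609), which makes the second intermediate of the cofactor, was at 6.44, 12.4 and 5.56 FPKM in HFD and 2.17, 2.49 and 2.85 FPKM in NFD. Every HFD library was thus above every NFD library, with a log2 fold change of 1.45 ± 0.32 SE and a 95% interval from 0.68 to 2.21 (limma, unadjusted p = 0.00342, adjusted p = 0.585). Its adjusted p was between 0.519 and 0.981 over the alternatives.

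The co-chaperone dnajc12 (MSTRG.5226), of the DNAJ family, was at 4.79, 3.39 and 3.67 FPKM in HFD and 2.58, 2.45 and 2.30 FPKM in NFD. Its log2 fold change was 0.59 ± 0.19 SE with a 95% interval from 0.14 to 1.04 (limma, unadjusted p = 0.0185, adjusted p = 0.745). Every HFD library was above every NFD library. The unadjusted p in limma was 0.0644 without HFD replicate 1 and 0.0550 without NFD replicate 3. It stayed under 0.05 when any other single library was left out. The reductase sprb (MSTRG.23184), of the last step of cofactor synthesis, averaged 5.51 ± 1.58 FPKM under HFD and 3.99 ± 0.786 under NFD. The recycling enzyme qdpra (MSTRG.7954) was at 36.7 ± 8.92 and 32.1 ± 4.54 FPKM, and both overlapped between diets.

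Of the other enzymes that act on phenylalanine, tyrosine or compounds made from them, 4 were tested and 0 passed (limma), with 2 higher and 2 lower in HFD. The mitochondrial aspartate aminotransferase got2a (MSTRG.6410), which also takes aromatic amino acids in mammals, averaged 142.7 ± 21.2 FPKM under HFD and 150.3 ± 15.5 under NFD, far above tat. Its cytosolic relative got1 (MSTRG.20411) was at 5.14 ± 3.72 and 2.04 ± 1.04 FPKM, with values under 0.85 FPKM in HFD replicate 2 and NFD replicate 2. The log2 fold change of got1 went from 0.87 to 1.72 without HFD replicate 2, and to 0.45 without HFD replicate 3. These had the lowest and the highest got1 of the HFD libraries, so both shifts were bound to occur and nothing is read from them. Monoamine oxidase, mao (MSTRG.17015), was at 4.67, 6.58 and 2.21 FPKM in HFD and 15.3, 15.5 and 2.44 FPKM in NFD, so that NFD replicate 3 alone lay among the HFD values. Its log2 fold change was -0.97 (limma, unadjusted p = 0.237, adjusted p = 0.919), and -1.78 without NFD replicate 3 (limma, unadjusted p = 0.00819, adjusted p = 0.748). Leaving out the library that overlapped was bound to widen the difference, so nothing is read from it. The log2 fold change was -0.57 without NFD replicate 1 and -0.56 without NFD replicate 2. The tautomerase ddt (MSTRG.29001) was at 12.2 ± 1.14 and 10.7 ± 0.644 FPKM. Enzymes of melanin synthesis, which uses tyrosine in pigment cells, did not reach the minimum for testing and are named here after their values were seen. The 3 gene IDs named tyr, TYR and tyrp1b were listed at 0 in every library, and TYRP1 was above 0 in NFD replicate 2 alone, at 0.0567 FPKM. The tautomerase dct (MSTRG.13500) was at 1.12 FPKM in HFD replicate 2 and 0.969 FPKM in NFD replicate 3, and at most 0.0409 FPKM in the other libraries.

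A further list held genes that use the end products or share a domain with the last enzyme. Of 10 tested, 0 passed in limma, 4 were higher and 6 lower in HFD, and the median log2 fold change was -0.12. Diets did not overlap in 4 of 10 and the unadjusted p was under 0.05 in 2 of 10, against 11.6% and 6.02% of all tested genes. The thiolase acat1 (MSTRG.17456), which splits acetoacetyl-CoA in mitochondria, was at 5.17, 4.54 and 5.31 FPKM in HFD and 3.05, 3.74 and 3.07 FPKM in NFD. Its log2 fold change was 0.54 ± 0.17 SE with a 95% interval from 0.13 to 0.96 (limma, unadjusted p = 0.0184, adjusted p = 0.745). The unadjusted p of acat1 in limma was 0.0577 without HFD replicate 1, 0.0647 without HFD replicate 3 and 0.0560 without NFD replicate 3. It stayed under 0.05 when any other single library was left out. The dehydrogenase bdh2 (MSTRG.24157) was at 4.44, 4.81 and 8.10 FPKM in HFD and 8.60, 8.41 and 10.2 FPKM in NFD, a log2 fold change of -0.65 ± 0.26 SE (limma, unadjusted p = 0.0464, adjusted p = 0.826). With single libraries left out, the unadjusted p of bdh2 in limma was under 0.05 only without HFD replicate 3, the HFD library nearest to NFD. It was highest without HFD replicate 1, at 0.142.

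FAHD2A (MSTRG.19010), whose product carries a domain related to that of the last hydrolase of the route without being shown to do its reaction, was at 3.17, 2.11 and 0.0205 FPKM in HFD and 3.19, 4.84 and 6.28 FPKM in NFD. Its log2 fold change of -1.58 ± 0.74 SE had an adjusted p of 0.870 in limma, and was -0.72 without HFD replicate 3. The related fahd1 (MSTRG.28581), an oxaloacetate decarboxylase in mammals, was at 7.65 ± 1.17 and 10.98 ± 2.47 FPKM. The other gene without overlap was fumarase, FH (MSTRG.3368), named after its values were seen. Fumarase averaged 12.4 ± 0.813 FPKM on the high-fat diet and 14.1 ± 0.180 on normal fat (limma, adjusted p = 0.919).

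The last list held carriers of amino acids, transcription factors of liver metabolism and the glucagon receptor. Of 12 tested, 0 passed in limma, and 6 were higher and 6 lower in HFD. The diets did not overlap in 0 of 12, against 11.6% of all tested genes. The median log2 fold change was -0.09. The factor foxo1a (MSTRG.17831), which is active in fasting and restrained by insulin, was at 6.09, 6.33 and 8.20 FPKM in HFD and 2.35, 1.86 and 7.20 FPKM in NFD, so that NFD replicate 3 alone lay among the HFD values. Its log2 fold change was 0.97 (limma, unadjusted p = 0.0772, adjusted p = 0.876), and 1.50 without NFD replicate 3 (limma, unadjusted p = 0.00106, adjusted p = 0.492). Leaving out the library that overlapped was bound to widen the difference, so nothing is read from it. The log2 fold change was 0.78 without NFD replicate 1 and 0.64 without NFD replicate 2. The carriers slc43a2a (MSTRG.28505, a gene ID shared with myo1cb), slc7a8a (MSTRG.13862) and slc7a5 (MSTRG.2976) were all under 3.10 FPKM in every library. Slc43a2a averaged 0.755 ± 0.166 FPKM under HFD and 1.83 ± 1.16 under NFD, and was -0.41 in log2 fold change without NFD replicate 3 against -0.78 with it. Slc7a8a was at 1.00 ± 0.173 and 1.38 ± 0.201, and slc7a5 at 0.567 ± 0.227 and 0.341 ± 0.175.

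**Figure D5:**
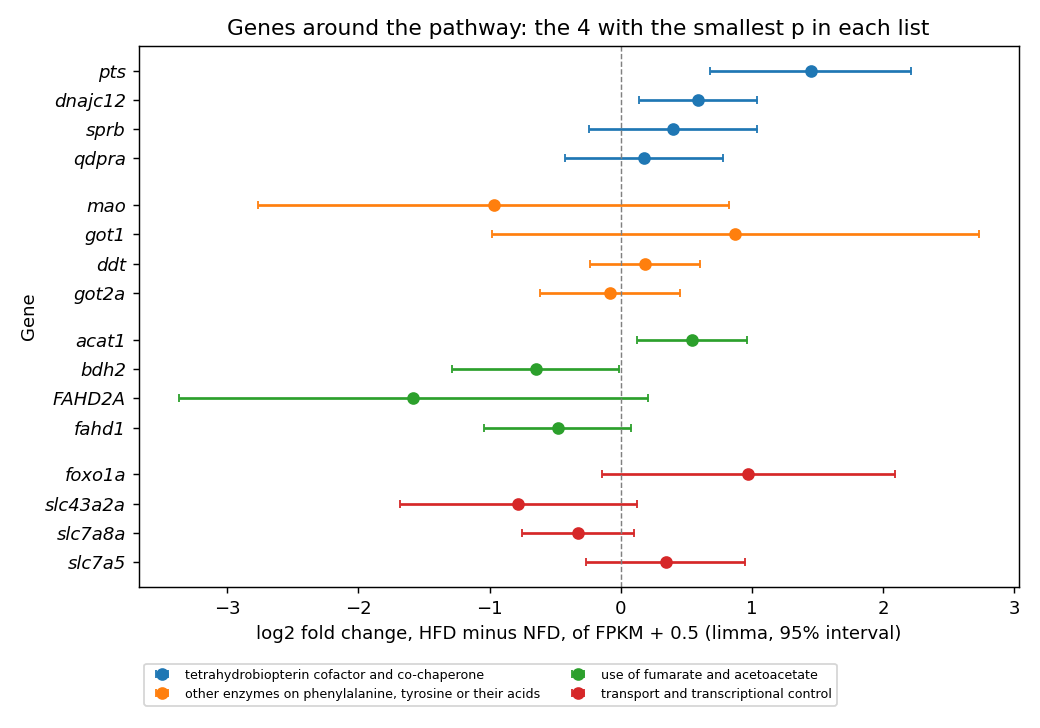
The log2 fold change of FPKM + 0.5, HFD minus NFD, with its 95% interval from limma for the 4 genes with the smallest p in each of 4 lists around the route. The intervals of pts, dnajc12 and acat1 lie above 0 and that of bdh2 below 0, and no gene has an adjusted p under 0.05.

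The lncRNA table, which lists 19928 transcripts, held 0 transcripts with the gene ID of any member, so none was compared. A non-coding transcript near a member could carry another gene ID, so the 0 does not show that a partner is absent. The files give no positions.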

How the data were processed

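The authors deposited FPKM values per transcript for each library, per the file headers. HISAT2 2.0.4 and StringTie 1.3.0 are among the tools listed, without their roles, per the submitters' processing notes. For the genome build, annotation and strand setting, nothing is given in the sources used here. A value of 0.0001 was set to 0. Transcripts were summed per gene ID. Genes with at least 0.5 FPKM in 3 or more of 6 libraries were fitted as log2(FPKM + 0.5) with limma 3.58.1 in R 4.3.3 (eBayes with a variance trend, diet as the only term, two-sided, Benjamini-Hochberg over all 9204 genes, threshold 0.05). A fold change on this scale understates the change of low genes. Depth is unknown: for any pair of libraries at most 1.14% of low transcripts shared the commonest ratio within 1%, so the size of 1 read could not be found. Low values can hold several reads, so this does not show whether values were whole multiples of 1 read. No counting interval is given. Another gene of the route is not reported here, and it enters no count, sum or profile of members. The members and lists were chosen with earlier results of these data known. Named genes are the members reported, the 4 smallest p of each list and the 5 nearest profiles. Melanin enzymes, fumarase and the marker genes fgb, apoa2, apoeb, fetub, lpl, cidec, lrp2a and cubn were named after their values were seen. The fit was tested on simulated data. Figures were drawn with matplotlib 3.10.9. Other pseudocounts (0.1 and 1), filters, scalings, variance priors and summed units were tried, as were a replicate block and the omission of each library.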

Additional observations from a re-analysis of the deposited data

How the results depend on the processing

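Precision is limited by the 3 libraries per diet, and depth is unknown. The count of members and of linked genes with an adjusted p under 0.05 was 0 under all 16 alternatives. Over all genes it was 0 under 15 alternatives and 4 without NFD replicate 2, a range from 0 to 4 when single libraries were left out. Before adjustment, p was under 0.05 for 554 genes, and for 946 of 21043 with no filter on low values, where more genes were tested.

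The signs of hgd and tat did not turn under any of the 16 alternatives (log2 fold change between 0.42 and 0.69, and between 0.14 and 0.45). Most of these could not have turned them. Other filters, variance priors, summed units and the replicate block left both fold changes as they were. For hgd, whose diets did not overlap, leaving out 1 library or changing the pseudocount could not turn the sign either. Leaving out single libraries turned hpda to -0.11, -0.04 and -0.32 (without HFD replicate 2, NFD replicate 1 and NFD replicate 2), gstz1 to -0.08 and -0.11 (without HFD replicate 3 and NFD replicate 2), got2a to 0.049 (without HFD replicate 1) and qdpra to -0.0060 (without HFD replicate 3). Over the libraries left out in turn, hpda ranged from -0.32 to 0.76, gstz1 from -0.11 to 0.36, got2a from -0.17 to 0.049 and qdpra from -0.0060 to 0.33. The cause was not tested. The log2 ratios of consecutive steps stayed within 1 SD under 9 alternatives each, but most of these could not have moved them further. Leaving out 1 of 6 libraries cannot shift a mean by 1 SD. Each tested member has 1 listed transcript, so the choice of transcripts changed nothing. With a pseudocount of 0.5 FPKM the mean log2 ratios were -0.37 (hpda to tat), 3.88 (hgd to hpda) and -5.97 (gstz1 to hgd).

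No pairing by replicate number was seen: the deviations of same-numbered libraries correlated across genes at -0.0052, -0.20 and -0.11. Differently numbered libraries correlated at between -0.13 and 0.20. Deviations centred on 3 libraries per diet depend on each other, so these values cannot show that pairing was absent. With the replicate block 0 genes passed, and 412 had an unadjusted p under 0.05. No comparison of lncRNA transcripts by gene ID was possible, since none carries a member's gene ID.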
